A study of Saccharomyces cerevisiae with 16 samples.

Results

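The states of wild-type budding yeast, raffinose before the first galactose pulse and glucose before the second, were compared by RNA-seq. The comparison used 2 of the 16 libraries of the series, one taken in raffinose at 0 min (stage Ra-0) and one after 120 min in glucose (stage Glu-120), both from the Saccharomyces cerevisiae strain YSB787. The cells that gave the glucose library had first spent 120 min in galactose, and all cells grew in synthetic complete medium. The same strain was also sampled after 15, 30 and 120 min of the first galactose pulse, after 30 min of glucose, and after 15 and 30 min of a second galactose pulse. A matched strain, YTK113, with the genotype hda1-/-, which lacks the catalytic subunit of a histone deacetylase complex, went through the same 8 stages. Each stage of each genotype has 1 library, so neither an error between cultures nor a test can be given, and an ORF was called higher or lower by size alone. The effects of sugar, of time in culture and of the galactose already met cannot be told apart. In a bulk sample, a change in all cells and a change in some of them cannot be told apart either.

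Budding yeast prefers glucose. When it is plentiful, the Mig1 repressor shuts genes for other sugars and for respiration, while the Rgt1 repressor lets go of the genes for low-affinity glucose carriers. Raffinose is split outside the cell by invertase, so that cells on it see only a small supply of hexose, and neither raffinose nor glucose is an inducer of the galactose (GAL) genes.

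Levels are FPKM, the fragments of a transcript scaled by its length and by the size of the library. The raffinose library held 2.14 Gb of aligned bases and the glucose library 2.51 Gb, which correspond to 10.6 M and 12.4 M fragments of 202 bases. Annotated genes took 89.0% and 89.1% of those bases. A floor of 3 fragments equals 0.284 FPKM in raffinose and 0.242 FPKM in glucose for a gene of 1 kb. HDA1 itself, at 32.6 FPKM in raffinose and 34.3 FPKM in glucose, was present in wild type, and it was at 0.0364 and 0 FPKM in the hda1-/- pair, as the labels say.

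Promoter sequence from the reference genome (RefSeq, build R64, the build of the deposited files) is shown for 7 genes around which the comparison turned. SUC2 was the lowest of the genes that could be ranked, those averaging 10 FPKM or more in the compared pair, with at least 3 fragments in every library, no overlap with another gene and at most 10% repeated sequence. HXT1 and HXT3 were the 2 glucose carriers higher in glucose, and HXT7 was the most abundant carrier in raffinose. GAL1 stands for the galactose genes, MDH1 for the enzymes of respiration and NOP7 for ribosome assembly. Each sequence reads 5′ to 3′ on the strand of its gene, and capitals mark matches on either strand to the motifs named. The stretch of SUC2 (chrIX:36785-37084, plus strand) covers bases 600 to 301 before the start codon and has 3 matches to the Mig1 core (the letters CCCCGC, or else CCCCAG, or else CCCCGG, or else CCCCAC).
SUC2: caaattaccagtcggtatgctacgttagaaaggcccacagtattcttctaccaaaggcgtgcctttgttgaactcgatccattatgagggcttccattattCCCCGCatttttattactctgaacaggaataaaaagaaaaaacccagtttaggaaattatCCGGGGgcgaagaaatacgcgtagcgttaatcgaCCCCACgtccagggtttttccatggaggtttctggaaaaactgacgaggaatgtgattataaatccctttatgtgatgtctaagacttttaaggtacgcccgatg
The same window of HXT1 (chrVIII:292926-293225, minus strand) has 3 matches to the Rgt1 core CGGANNA, in which N is any base.
HXT1: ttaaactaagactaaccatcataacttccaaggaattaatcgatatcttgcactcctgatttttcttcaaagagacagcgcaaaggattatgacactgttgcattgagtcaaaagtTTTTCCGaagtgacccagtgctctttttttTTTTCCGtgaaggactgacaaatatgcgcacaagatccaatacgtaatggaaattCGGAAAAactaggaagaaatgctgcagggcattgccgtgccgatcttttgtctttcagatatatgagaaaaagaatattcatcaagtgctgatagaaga
That of HXT3 (chrIV:1164961-1165260, minus strand) has 7 matches to the Rgt1 core.
HXT3: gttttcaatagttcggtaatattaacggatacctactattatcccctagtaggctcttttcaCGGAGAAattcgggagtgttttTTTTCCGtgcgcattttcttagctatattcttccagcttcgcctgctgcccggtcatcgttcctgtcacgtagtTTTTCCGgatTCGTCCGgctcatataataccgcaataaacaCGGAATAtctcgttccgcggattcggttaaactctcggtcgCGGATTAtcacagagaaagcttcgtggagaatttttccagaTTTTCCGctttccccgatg
Bases 350 to 151 before the start codon of HXT7 (chrIV:1156079-1156278, minus strand) hold 1 Mig1 core.
HXT7: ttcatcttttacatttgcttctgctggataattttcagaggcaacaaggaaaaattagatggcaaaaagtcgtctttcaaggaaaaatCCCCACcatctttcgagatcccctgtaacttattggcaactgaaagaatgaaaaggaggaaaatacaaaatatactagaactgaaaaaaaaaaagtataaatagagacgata
Bases 460 to 161 before GAL1 (chrII:278561-278860, plus strand) hold 3 Gal4 sites, each written as CGG, any 11 bases and CCG, and 2 Mig1 cores. In it the bases between CGG and CCG are capitals too.
GAL1: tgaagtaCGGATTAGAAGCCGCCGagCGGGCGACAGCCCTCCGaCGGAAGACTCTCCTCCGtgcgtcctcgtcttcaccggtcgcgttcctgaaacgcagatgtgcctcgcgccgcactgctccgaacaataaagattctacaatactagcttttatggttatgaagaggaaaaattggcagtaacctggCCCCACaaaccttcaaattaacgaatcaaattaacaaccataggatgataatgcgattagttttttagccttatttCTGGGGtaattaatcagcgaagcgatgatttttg
Bases 350 to 151 before MDH1 (chrXI:278773-278972, plus strand) hold 1 CCAAT box (CCAAT), the element of the Hap2/3/4/5 complex.
MDH1: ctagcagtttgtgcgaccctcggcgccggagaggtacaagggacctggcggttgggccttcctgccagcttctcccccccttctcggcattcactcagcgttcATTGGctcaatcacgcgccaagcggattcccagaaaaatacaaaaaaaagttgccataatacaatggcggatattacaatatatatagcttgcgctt
Bases 300 to 111 before NOP7 (chrVII:695117-695306, plus strand) hold 3 overlapping matches to the PAC core GATGAG and 2 overlapping matches to the RRPE core AAATTTT, both common before ribosome assembly genes.
NOP7: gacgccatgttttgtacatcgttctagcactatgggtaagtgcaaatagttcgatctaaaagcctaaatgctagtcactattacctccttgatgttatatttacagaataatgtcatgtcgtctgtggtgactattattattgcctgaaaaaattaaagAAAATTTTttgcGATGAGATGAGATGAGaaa
Over all 5881 ORFs measured, a window at the place of that of SUC2 held at least 3 Mig1 cores in 0.306% of cases and at least 3 Rgt1 cores in 1.14%, and HXT3 was the only ORF with 7 Rgt1 cores. At the place of the GAL1 window, 0.051% of ORFs had 3 or more Gal4 sites. At those of HXT7 and MDH1, 10.4% had a Mig1 core and 32.3% a CCAAT box. At that of NOP7, 13.0% had a PAC core and 17.5% an RRPE core. Each window takes in the matches shown and its place differs from gene to gene. A low share at the same place is thus partly fixed by that choice and was not tested. A match describes letters and does not show that a factor binds.

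Most of the transcriptome differed little between the 2 states. Nuclear ORFs that averaged 1 FPKM or more over all 16 libraries numbered 5881. Of these, 94 were at least 2-fold higher in glucose (1.6%) and 116 were at 0.5-fold or less (1.97%), on the scale of FPKM plus 1. The remaining 5671 (96.4%) lay within 2-fold. The median log2 ratio was 0.02, with quartiles of -0.15 and 0.17. The hda1-/- pair had 82 ORFs (1.39%) higher and 96 (1.63%) lower by the same rule. The wild-type shares of 1.6% and 1.97% are the background for the calls in each list below.

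The ORFs called higher had low levels in raffinose also where ORFs listed at 0 were left out. The ratio that made the calls uses these same levels, so the medians and shares of called ORFs are partly fixed by it. The 53 higher ORFs with a value above 0 had a median of 3.28 FPKM in raffinose and 25.2 FPKM in glucose, where the median of all ORFs measured was 29.4 FPKM in raffinose. The 92 lower ORFs with a value above 0 had medians of 36.9 FPKM in raffinose and 8.59 FPKM in glucose. With ORFs listed at 0 included, the higher ORFs took a share of all ORF bases of 0.158% in raffinose and 0.949% in glucose, while the lower ORFs went from 3.35% to 0.895%. Chromosome ends held 11.2% of the lower ORFs (13 within 25 kb of an end) and 4.26% of the higher ones, against 4.78% of all ORFs measured.

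A large part of the extreme ratios rests on values listed at exactly 0. In raffinose 41 of the 94 higher ORFs were listed at 0, among them 32 of the 43 that passed 10-fold. In glucose 24 of the 116 lower ORFs were, among them 16 of the 21 at 0.1-fold or less. Among them were CDC5 and CDC9, which every cell needs, and HIS3 of histidine synthesis. CDC5, the polo kinase of mitosis, was listed at 0 in raffinose and was at 59.8 FPKM in glucose, and CDC9, the DNA ligase, was at 16.4 FPKM in raffinose and listed at 0 in glucose. HIS3 was listed at 0 in raffinose and was at 66.7 FPKM in glucose. Each of these 3 genes was also listed at 0 in at least 1 of the other wild-type libraries. Such values may be failed estimates, and no ratio is given for them. Without ORFs listed at 0 in either library, 53 were higher and 92 lower.

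**Figure D1:**
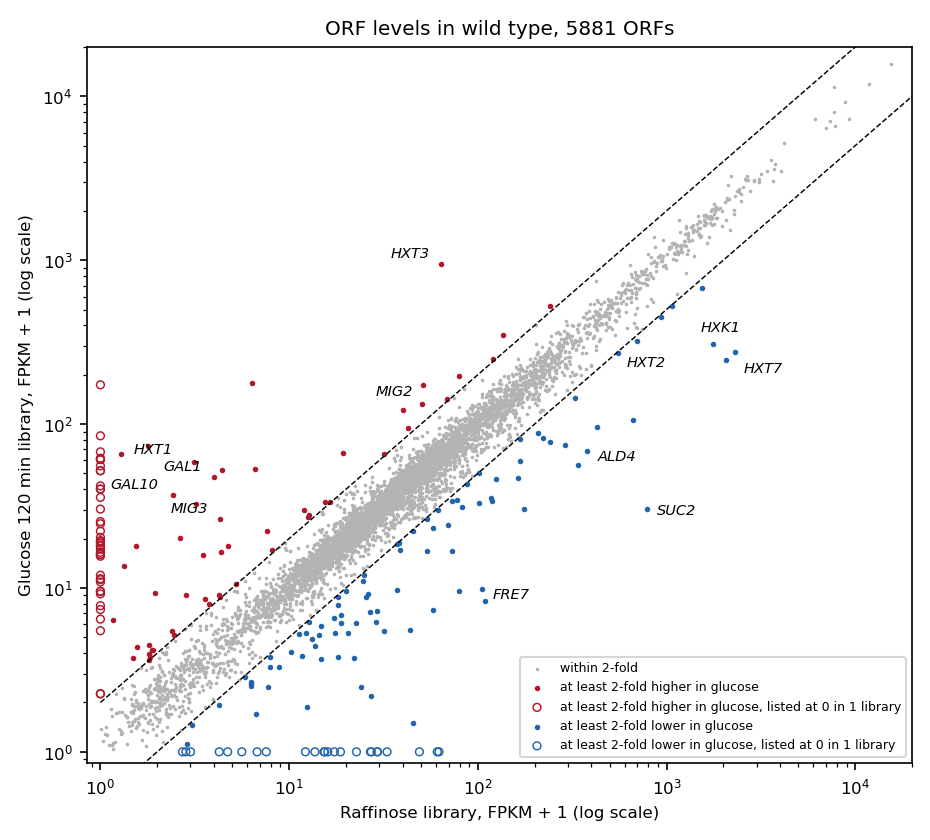
Level of each of 5881 ORFs in the wild-type raffinose library (horizontal) and the glucose 120 min library (vertical), as FPKM plus 1 on log axes, with dashed lines at 2-fold. Open circles are called ORFs listed at 0 in 1 library. They line both axes (41 higher, 24 lower), while HXT3 and SUC2 stand clear of the diagonal at measured levels in both libraries.

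The hexose transporters, which carry glucose and fructose across the cell membrane, were called in both directions. Of 12 measured members, 2 were higher (16.7%) and 3 lower (25%), against 1.6% and 1.97% of all ORFs measured. The median log2 ratio was -0.16. HXT1, the carrier of lowest affinity (YHR094C, chrVIII:290913-292625), was at 0.290 FPKM in raffinose, or about 5.25 fragments, and at 64.4 FPKM in glucose. That made it 50.7-fold higher (95% exact binomial counting interval 39.1 to 59.7). With so few fragments in raffinose the fold depended on the pseudocount, and was 165 with 0.1 FPKM added and 13.1 with 5 FPKM added. HXT3, another low-affinity carrier (YDR345C, chrIV:1162957-1164660), went from 62.5 to 946 FPKM and was 14.9-fold higher (14.1 to 15.8). Both were nearly flat through the first galactose pulse, at whose end HXT1 was at 0.187 FPKM and HXT3 at 54.8 FPKM. After 30 min of glucose they were at 30.3 and 306 FPKM. Without HDA1 the corresponding values were 39.2-fold for HXT1 and 8.67-fold for HXT3.

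The high-affinity carriers moved the other way. HXT7 was at 2315 FPKM in raffinose and 273 FPKM in glucose, a ratio of 0.118, and HXT6 at 2059 and 245 FPKM, a ratio of 0.119. These genes are nearly identical, with 94.9% of each made of sequence found more than once in the genome, so how the reads were divided between them is uncertain. HXT2, also a carrier of high affinity, was at 552 and 272 FPKM (ratio 0.493, counting interval 0.477 to 0.510), just past the threshold, and was at 0.848 in the hda1-/- pair. HXT4 was at 159 and 85.5 FPKM (ratio 0.539) and stayed short of it. HXT5, a carrier of slow-growing cells, was low in both states, at 1.65 and 1.74 FPKM. Without HDA1, HXT7 had a ratio of 0.344 and HXT6 of 0.356. That difference between genotypes was not tested.

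Neighbouring carrier genes went opposite ways. HXT7, HXT6 and HXT3 lie in that order on chromosome IV, between bases 1154216 and 1164660, on the minus strand. The first pair was at about 0.12-fold in glucose and HXT3 was 14.9-fold higher. On chromosome VIII, HXT4, HXT1 and HXT5 lie between bases 287081 and 296447, also on the minus strand, with ratios of 0.539, 50.7 and 1.03.

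Among the 8 regulators of these carriers, 2 were higher and none was at 0.5-fold or less. MIG2, a glucose-induced repressor related to Mig1, went from 49.4 to 131 FPKM (2.63-fold, counting interval 2.40 to 2.88). MIG3, another repressor of that family, went from 3.31 to 25.2 FPKM (6.08-fold, 4.68 to 7.91, and 3.64-fold with 5 FPKM added). Without HDA1, MIG2 was at 1.94-fold, short of the threshold, and MIG3 at 2.94-fold. MTH1, whose product keeps Rgt1 on its targets when glucose is low, was at 97.5 and 64.2 FPKM, a ratio of 0.662. The sensor gene RGT2 was at 19.1 and 20.2 FPKM, and its high-affinity partner SNF3 at 12.0 and 7.33 FPKM. MIG1 itself was at 42.5 FPKM in raffinose and had a ratio of 0.689, and none of the 14 genes of the Snf1 kinase and Mig1 passed 2-fold.

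**Figure D2:**
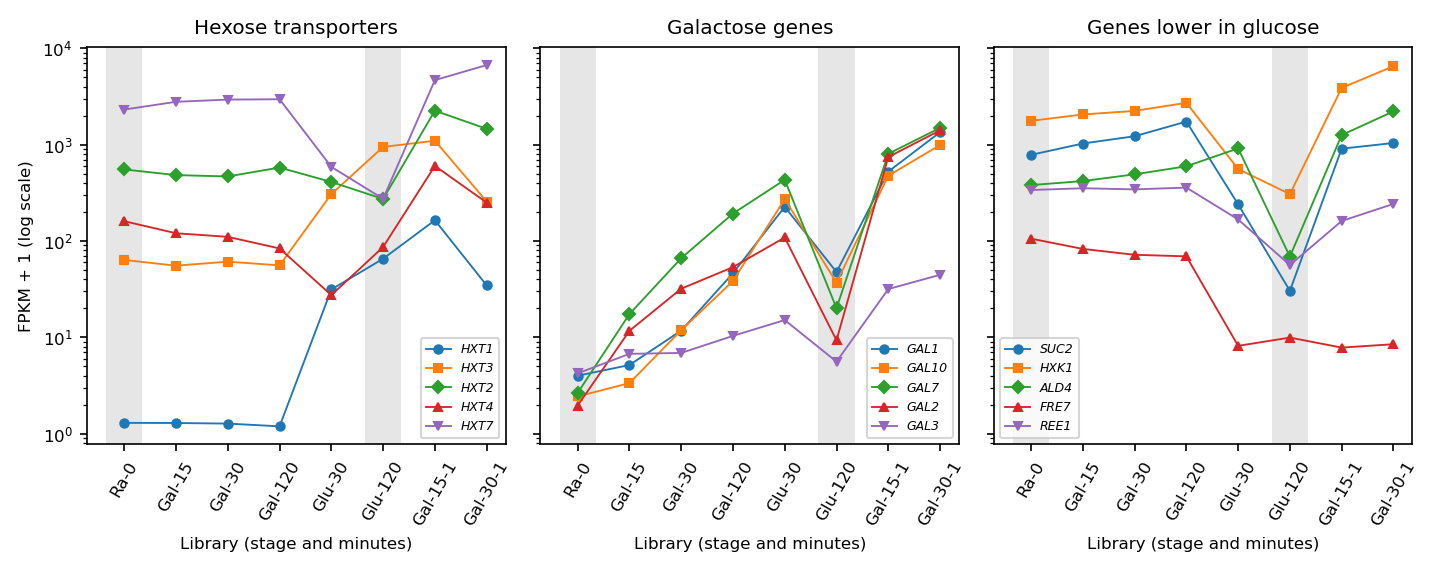
Wild-type levels (FPKM plus 1, log axis) of 15 genes in the 8 libraries in the order of sampling, with grey bands on the 2 states compared. HXT1 is 0.290 FPKM in raffinose and 64.4 in glucose, SUC2 783 and 29.4, and GAL1 2.98 and 46.6, with 225 FPKM at 30 min of glucose.

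The galactose genes did not return to their raffinose level within 120 min of glucose. GAL1, GAL7 and GAL10 encode the enzymes that turn galactose into a glycolytic sugar phosphate, GAL2 encodes the carrier, and all 4 were higher, out of 12 measured genes of the galactose list. GAL1, the galactokinase (YBR020W, chrII:279021-280607), was at 2.98 FPKM in raffinose and 46.6 FPKM in glucose, 11.9-fold higher (counting interval 9.55 to 14.9). GAL10, the epimerase, went from 1.43 to 36.0 FPKM (15.2-fold, 12.1 to 18.9). GAL7, the transferase, went from 1.64 to 19.0 FPKM (7.6-fold, 5.5 to 10.3). GAL2 went from 0.949 to 8.29 FPKM (4.77-fold, 3.58 to 6.14). The hda1-/- pair gave 17.8-fold for GAL1, 16.5-fold for GAL10, 5.64-fold for GAL7 and 5.70-fold for GAL2, so each was called in both genotypes. The folds depended on the pseudocount. With 5 FPKM added in wild type, GAL1 was at 6.46-fold, GAL10 at 6.37-fold, GAL7 at 3.62-fold and GAL2 at 2.23-fold. With 0.1 FPKM added, GAL1 was at 15.1-fold and GAL10 at 23.6-fold.

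The libraries in between give the course of these transcripts. GAL1 was at 45.2 FPKM at the end of the first galactose pulse, at 225 FPKM after 30 min of glucose and at 46.6 FPKM after 120 min. GAL10 had 37.4, 271 and 36.0 FPKM at those stages. So the glucose state held about the level of the end of the first pulse for these genes, with a higher value between. For GAL7 the order was 192, 431 and 19.0 FPKM, and for GAL2 it was 52.5, 108 and 8.29 FPKM, so both ended under their galactose level. All of these remained far below the second pulse, where GAL1 reached 524 FPKM at 15 min and 1347 FPKM at 30 min.

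The regulators of the pathway stood closer to their raffinose level. GAL3, the galactose sensor, was at 3.21 and 4.58 FPKM (1.32-fold, 1.00 to 1.75), and 0.933-fold in the hda1-/- pair. GAL80, the inhibitor of Gal4, was at 58.6 and 75.3 FPKM (1.28-fold, 1.17 to 1.40). The activator GAL4, with Mig1 cores known in its promoter, was at 10.3 and 4.97 FPKM, a ratio of 0.529 (0.488 with 0.1 FPKM added, past the threshold). PGM2, the phosphoglucomutase at the end of the pathway and a gene also used for glycogen, was the 1 member called lower, at 162 and 45.8 FPKM (ratio 0.287). The median log2 ratio of the list was 0.23, and 7 of its 12 members were above 0, against 52.8% of all ORFs.

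Genes for splitting sucrose, raffinose and maltose were lower. Of 14 measured, 4 were called and 13 were below 0 on the log2 scale, where 46.3% of all ORFs were. Only 6 of the 14 were free of overlap, repeated sequence and values near 0, and these held 2 of the 4 calls. SUC2, the invertase that cuts raffinose (YIL162W, chrIX:37385-38983), was at 783 FPKM in raffinose and 29.4 FPKM in glucose. Its ratio of 0.0387 (counting interval 0.0357 to 0.0420) was the lowest of the genes ranked. It had climbed to 1736 FPKM at the end of the first galactose pulse and stood at 239 FPKM after 30 min of glucose. In the hda1-/- pair it went from 504 to 83.0 FPKM, a ratio of 0.166. The maltases MAL12 and MAL32, which are 66.3% repeated sequence, had ratios of 0.210 and 0.251, and of 0.353 and 0.410 with 5 FPKM added. MAL33, the activator of the maltose genes, was at 36.5 and 8.77 FPKM (0.261, and 0.289 in the hda1-/- pair). The isomaltases IMA1 to IMA5 and the carriers MPH2 and MPH3 were within 2-fold.

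Genes of hexose phosphorylation were lower at 2 members. HXK1, a hexokinase known for repression by glucose, was at 1768 and 305 FPKM (ratio 0.173), and GLK1, the glucokinase, at 696 and 320 FPKM (0.461). Both overlap another annotated gene, and their ratios were 0.426 and 0.605 in the hda1-/- pair. HXK2, the main hexokinase on glucose, was at 1139 and 625 FPKM, a ratio of 0.549. These 2 calls were the only ones among 19 glycolytic genes. TDH3, the most abundant, was at 0.870-fold. On the way to ethanol, PDC1, the main pyruvate decarboxylase, was at 7713 and 11443 FPKM (1.48-fold), and ALD6, a cytosolic aldehyde dehydrogenase, at 0.494-fold.

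Genes for other carbon sources were lower at some members. Of 20 measured, 4 were lower (20%, against 1.97% of all ORFs measured) and none was 2-fold higher, with a median log2 ratio of -0.34. ALD4, the mitochondrial aldehyde dehydrogenase (YOR374W, chrXV:1039840-1041399), was at 379 and 67.8 FPKM (ratio 0.181, counting interval 0.170 to 0.192), and 0.232 in the hda1-/- pair. JEN1, the lactate carrier, was at 13.7 and 4.87 FPKM (0.399), a call lost with 5 FPKM added (0.527). DLD3, a D-lactate dehydrogenase and the most abundant member, was at 330 and 281 FPKM (0.853), and ADH2, the ethanol-consuming dehydrogenase, at 66.2 and 73.3 FPKM. FBP1 and PCK1, gluconeogenesis genes known to be shut by glucose, were low in both states. FBP1, the fructose bisphosphatase of gluconeogenesis, was at 1.67 and 1.75 FPKM, and PCK1, its partner at the entry of the pathway, at 2.17 and 3.30 FPKM. The activators of these genes, CAT8 (6.88 and 2.80 FPKM, ratio 0.482) and ADR1 (60.9 and 28.7 FPKM, ratio 0.481), were the 2 members called lower among 15 genes of gluconeogenesis and the glyoxylate cycle. Neither was called with 5 FPKM added, where the ratios were 0.657 and 0.512. The median log2 ratio of the 15 genes was -0.01, with 7 above 0 and 8 below. CIT2, the most abundant of them, was at 442 and 501 FPKM.

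Respiration genes were lower as a block, most of them by less than 2-fold. All 34 measured genes of the respiratory chain and ATP synthase were below 0, with log2 ratios from -1.05 to -0.19 and a median of -0.44. Among these only CYC1, the main cytochrome c, passed the threshold, at 166 and 79.8 FPKM (ratio 0.483, counting interval 0.421 to 0.553). COX26, a cytochrome c oxidase subunit outside this list, fell further, at 26.0 and 6.18 FPKM (0.266, counting interval 0.155 to 0.449). It was called lower in the hda1-/- pair too (0.486). The TCA cycle list had a median of -0.59, with 16 of 17 below 0. SDH1, a succinate dehydrogenase subunit, was called, at 72.1 and 32.9 FPKM (0.464), and MDH1, the mitochondrial malate dehydrogenase, was at 220 and 120 FPKM (0.548). Mitochondrial ribosomal proteins were below 0 in 65 of 66 cases, with a median of -0.50 and none called. HAP4, the regulated subunit of the activator of respiratory chain and TCA cycle genes, was at 133 and 107 FPKM (0.804). In the hda1-/- pair the medians were -0.28, -0.34 and -0.39 for the 3 lists in this order, where the median of all ORFs was -0.03.

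Growth genes were slightly higher. All 82 measured ribosome biogenesis genes were above 0, with log2 ratios from 0.05 to 0.61, a median of 0.32 and none called. NOP7, needed for the large ribosomal subunit, was the highest, at 202 and 309 FPKM (1.53-fold, counting interval 1.47 to 1.59), and NOP56 of the box C/D particles, which overlaps another annotated gene, was at 1.31-fold. The 21 genes of RNA polymerases I and III were all above 0 too, with a median of 0.28. RPA190, the largest subunit of polymerase I, was at 167 and 228 FPKM. The 138 cytosolic ribosomal protein genes had a smaller median of 0.14, with 114 above 0, and took 11.1% of ORF bases in raffinose and 12.3% in glucose. Without HDA1 these 3 lists had medians of 0.17, 0.13 and 0.17, and 69 of the 82 biogenesis genes were above 0. Genes of 1 list often answer to the same regulators, so they are not separate observations.

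**Figure D3:**
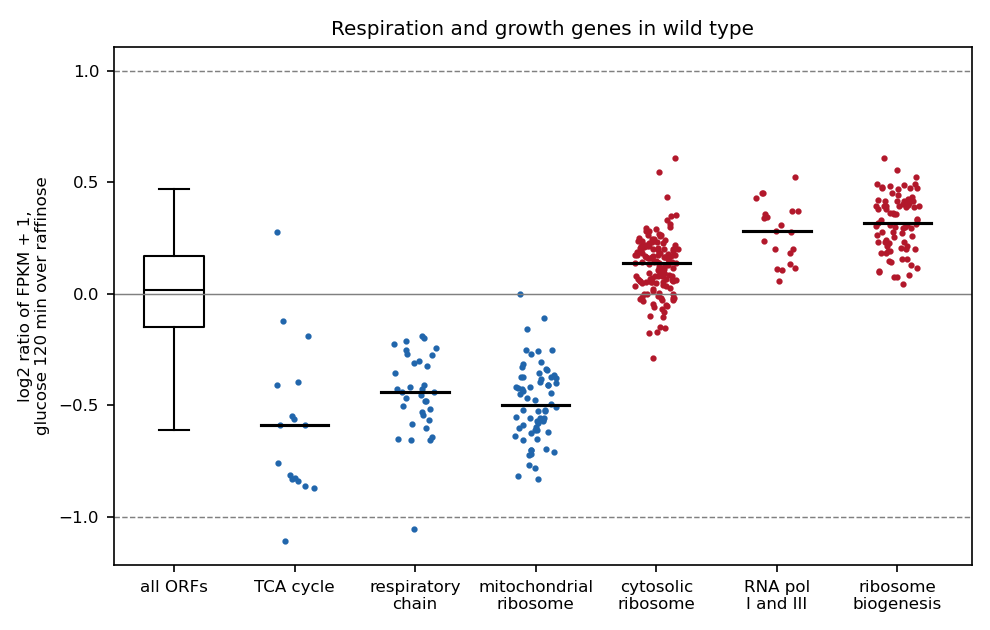
Log2 ratios of FPKM plus 1, glucose 120 min over raffinose, for each measured member of 6 gene lists in wild type, with bars at the medians, dashed lines at 2-fold and a box for all 5881 ORFs (quartiles, whiskers from the 5th to the 95th percentile). The 34 respiratory chain genes lie below 0 and the 82 ribosome biogenesis genes above it, nearly all inside 2-fold.

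The promoters of these blocks differed in letters. Within 300 bases before the start codon, the CCAAT box was found in 29 of 34 respiratory genes (85.3%) and in 14 of 17 TCA cycle genes (82.4%). The share was 42.3% over all ORFs and lower, 24 of 66 (36.4%), in mitochondrial ribosomal protein genes. PAC and RRPE cores were each found in 77 of 82 ribosome biogenesis genes (93.9%), against 19.3% and 24.4%. The Mig1 core was found in 6 of 12 hexose transporters (50%) and 8 of 14 sucrose and maltose genes (57.1%), against 12.2%. Both lists hold genes made largely of repeated sequence, such as HXT6 with HXT7 and MAL12 with MAL32, so their promoters may not be separate cases. Over the calls as a whole the shares were nearer to the background, with a Mig1 core before 27.6% of lower and 20.2% of higher ORFs. The stress element CCCCT was before 32.8% of lower ORFs and 23.4% of higher ones, against 22.3% of all. It was before 19 of 29 general stress genes (65.5%). A CGGANNA core was before 27.6% of the lower and 27.7% of the higher ORFs, against 27.0%. Gal4 sites stood before 6 of the 12 galactose genes, against 1.45% of all ORFs. A Rap1 core (ACCCATA, or else ACCCGTA) was before 4.22% of all ORFs, 2.13% of higher and 1.72% of lower ones. It was before 18 of 138 cytosolic ribosomal protein genes (13.0%), none of which was called. The Mig1 cores shown for SUC2, the CGGANNA cores shown for HXT1 and HXT3 and the Gal4 sites shown for GAL1 lie further from the start codon. Those matches are thus not counted in these shares. The shares are descriptions and were not tested.

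Storage carbohydrate genes were lower. All 15 measured genes of trehalose and glycogen were below 0, with a median of -0.54, and 3 were called. GSY1, a glycogen synthase, was at 116 and 34.5 FPKM (0.304), GDB1, the debranching enzyme, at 68.1 and 23.2 FPKM (0.351), and GLC3, the branching enzyme, at 167 and 58.4 FPKM (0.354). The hda1-/- ratios were 0.439, 0.436 and 0.526. The trehalose synthase genes were nearly flat, with TPS1 at 0.922-fold and TPS2 at 0.971-fold. MRK1, a kinase of the glycogen synthase kinase 3 family, was at 27.8 and 5.17 FPKM (0.214).

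Stress genes gave no single direction. Of 29 measured, 2 were higher (6.90%) and 1 lower (3.45%), with a median of -0.24. Over all ORFs measured, 1.6% were higher and 1.97% lower. HSP12, a membrane-protecting heat shock protein, was at 134 FPKM in raffinose and 348 FPKM in glucose (2.58-fold, 2.33 to 2.87), but it was at 288 and 363 FPKM in the hda1-/- pair (1.26-fold). It had been at 3605 FPKM after 30 min of glucose, above both states compared. PRX1, a mitochondrial peroxiredoxin, was lower, at 208 and 87.8 FPKM (0.425). The other higher member was XBP1, listed at 0 in raffinose. Of 23 chaperone genes, 1 was higher and 1 was lower (4.35% each), and 16 were below 0, with a median of -0.24. HSP30, a membrane chaperone, was at 15.4 and 32.5 FPKM (2.04-fold), and at 3.49-fold in the hda1-/- pair, but was not called in wild type with 5 FPKM added (1.84-fold). SSA1, a cytosolic chaperone of the Hsp70 family that overlaps another gene and is 45.5% repeated sequence, was at 1540 and 678 FPKM (0.441), and at 0.621 in the hda1-/- pair.

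A few genes of copper and iron uptake were called. Of 10 copper genes measured, 2 were lower (20%), 1 was higher (10%) and 7 lay within 2-fold. Of 30 iron genes 2 were higher (6.67%), 1 was lower (3.33%) and 27 lay within 2-fold. Over all ORFs measured, 1.6% were higher and 1.97% lower. The medians of the copper and iron lists were -0.14 and 0.19. FRE7, a copper-regulated metalloreductase (YOL152W, chrXV:40748-42610), was at 105 and 8.92 FPKM, a ratio of 0.0939 (counting interval 0.0821 to 0.107), and of 0.139 in the hda1-/- pair. CTR1, the high-affinity copper carrier, which overlaps another gene, was at 425 and 94.6 FPKM (0.225). FRE1, the reductase that serves both metals, was at 240 and 77.2 FPKM (0.324). CTR2, the vacuolar copper carrier, was listed at 0 in raffinose and was at 51.0 FPKM in glucose. The pair that takes up iron was higher. FTR1, the permease, was at 78.4 and 195 FPKM (2.47-fold, 2.30 to 2.65), and FET3, its multicopper oxidase, at 240 and 522 FPKM (2.17-fold, 2.10 to 2.25). FRE7, CTR1, FRE1, FTR1 and FET3 were called the same way in the hda1-/- pair. CTR2, listed at 0 in 1 library of each pair, was called the opposite way. FRE7 dropped early, to 7.14 FPKM after 30 min of glucose, and stayed near that level in the second galactose pulse (6.81 and 7.46 FPKM). At the end of that pulse CTR1 and FRE1 were lower than in the glucose state, at 35.5 and 16.7 FPKM.

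Several single genes of other pathways were called in both genotypes. INO1, the first enzyme of inositol synthesis, was at 118 and 32.7 FPKM (0.283, and 0.298 in the hda1-/- pair). ARO10, a decarboxylase of aromatic amino acid breakdown, was at 16.6 and 4.30 FPKM (0.301). REE1, of unclear function, was at 337 and 55.1 FPKM (0.166), and ATO2, a putative ammonium exporter, at 21.7 and 5.13 FPKM (0.269). IMD2, an IMP dehydrogenase of guanine nucleotide synthesis, was at 934 and 446 FPKM (0.478). Higher in both were YRO2, a membrane protein related to HSP30 (50.2 and 171 FPKM, 3.36-fold), the aldehyde reductase ARI1 (39.0 and 121 FPKM, 3.06-fold) and YOR062C (18.3 and 65.2 FPKM, 3.43-fold). FMP48, a putative kinase, was at 6.61 and 21.2 FPKM (2.92-fold). ARG1 of arginine synthesis was at 120 and 249 FPKM (2.07-fold), and 3.57-fold in the hda1-/- pair.

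**Figure D4:**
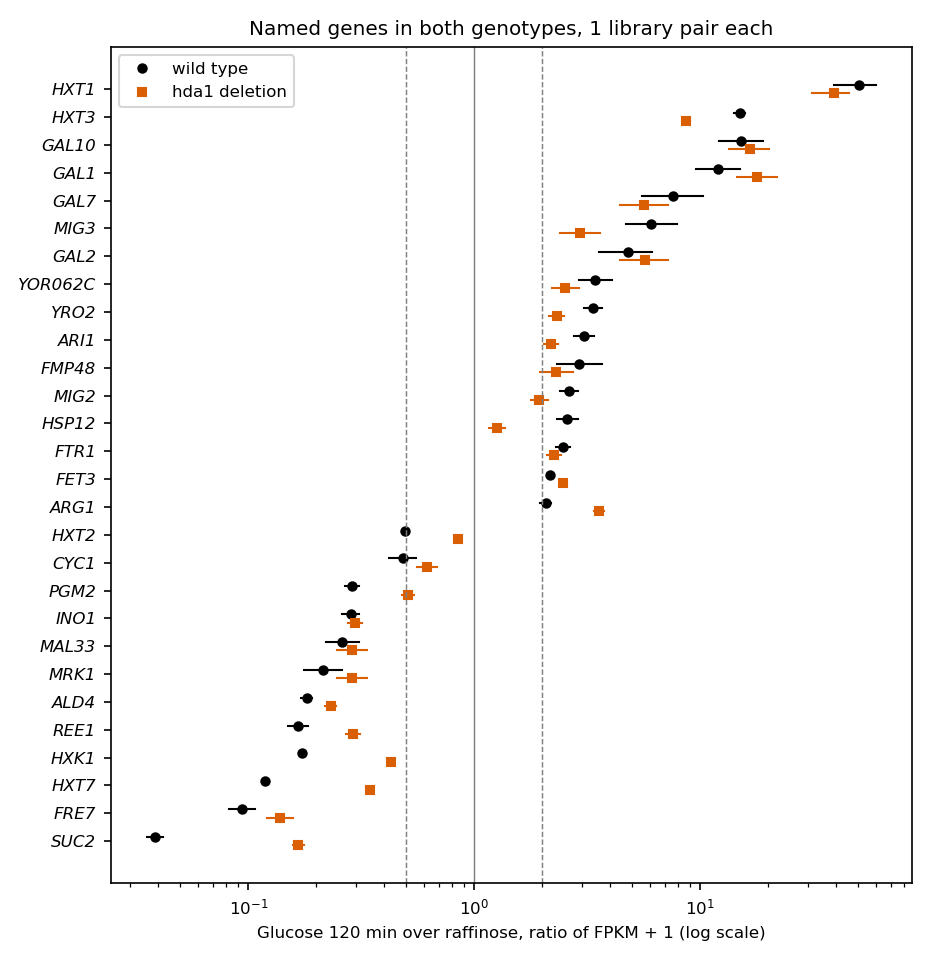
Ratio of FPKM plus 1, glucose 120 min over raffinose (log axis), for 28 genes in wild type (circles) and in the hda1-/- strain (squares), with 95% exact binomial counting intervals that leave out variation between cultures and dashed lines at 2-fold. HXT1 (50.7 and 39.2) and SUC2 (0.0387 and 0.166) are at the ends in wild type. The genes were picked for display, and each one drawn lies on the same side of 1 in both strains. Other ranked genes, not drawn, lay on opposite sides: RIB3, GCG1, MED6, SHE4 and YHR175W-A.

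Among other ranked genes, several were within 2-fold in the hda1-/- pair. TIM54, a mitochondrial import protein, was at 3.42 FPKM in raffinose and 51.5 FPKM in glucose (11.9-fold), with 46.3 to 67.7 FPKM in the other 6 wild-type libraries and a ratio of 1.08 in the hda1-/- pair. GCG1 was at 3.74 and 17.1 FPKM (3.82-fold), with 23.0 to 40.4 FPKM in the other wild-type libraries and a ratio of 0.651 in the hda1-/- pair. In wild type TIM54 was thus low in the raffinose library alone, while GCG1 was lowest there and next lowest in the glucose library. YKL023C-A was at 109 and 7.35 FPKM (0.0761), with 57.2 to 117 FPKM in the other wild-type libraries and 118 and 109 FPKM in the hda1-/- pair. MED6, of the Mediator complex, went from 28.2 to 6.19 FPKM (0.246), was at 2.48 FPKM after 30 min of the first pulse, and had a ratio of 1.33 in the hda1-/- pair. SHE4 and YHR175W-A had ratios of 0.169 and 0.258 in wild type and of 1.09 and 1.06 in the hda1-/- pair. YJL068C was called higher in both genotypes, at 2.12 and 57.8 FPKM in wild type (18.8-fold) and at 0.888 and 54.2 FPKM in the hda1-/- pair (29.2-fold). In wild type it was also at 66.6 FPKM at the end of the first galactose pulse and at 4.64 FPKM or less in the remaining libraries.

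The hda1-/- pair shares no library with the wild-type pair and is another genotype, not a replicate. Of the 94 ORFs higher in wild type, 33 (35.1%) were higher there, which is 40.2% of the 82 higher in that pair, and 6 were lower. Of the 116 lower, 43 (37.1%) were lower there, or 44.8% of the 96, and 5 were higher. Among ORFs not listed at 0 in either wild-type library, 43 of 53 higher and 82 of 92 lower ORFs lay on the same side of 1 in the hda1-/- pair, where 55.2% of all ORFs were below it. Those called in both were 23 and 38. Across the 5881 ORFs the log2 ratios of the 2 pairs had a Pearson r of 0.318 and a Spearman rho of 0.558, which describes genes of the same libraries and is no test.

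**Figure D5:**
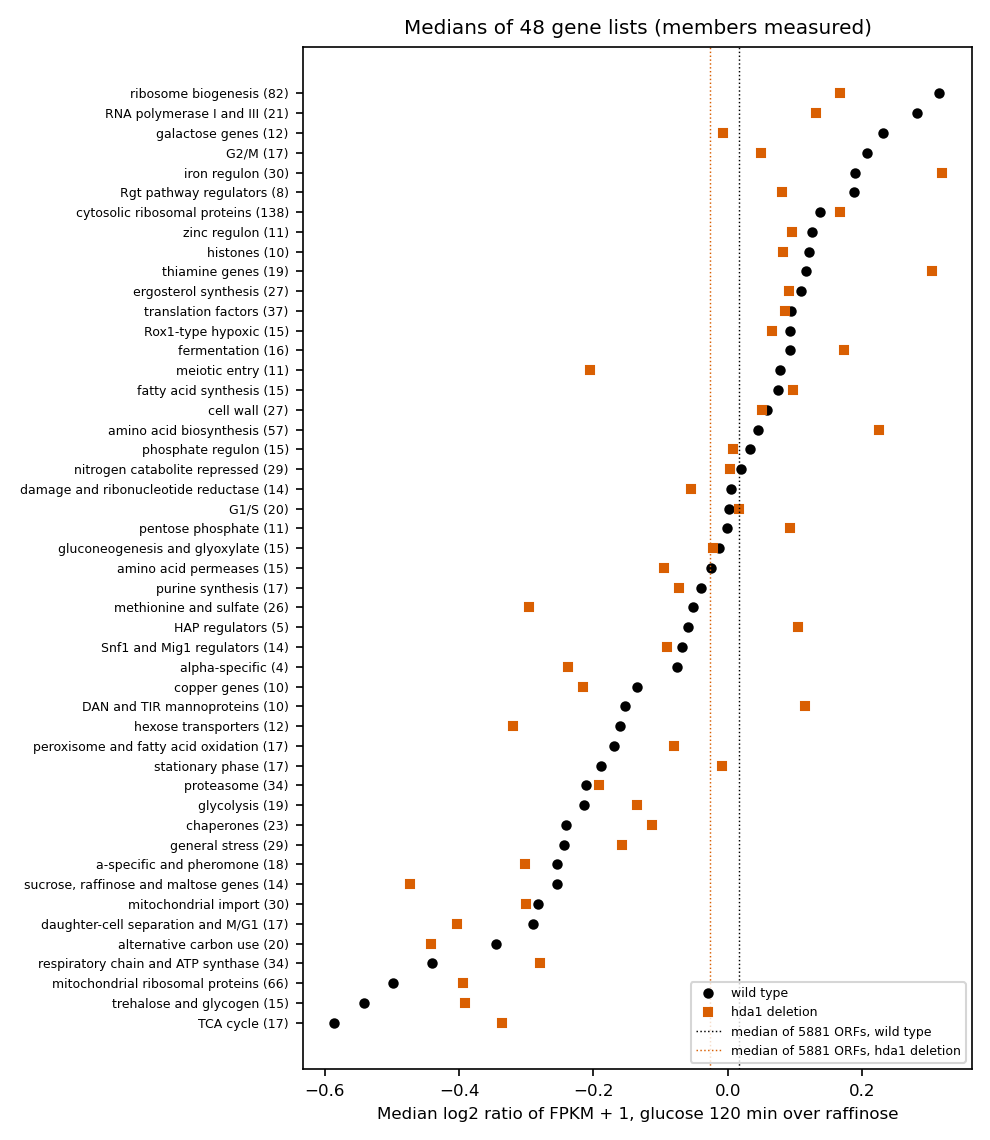
Median log2 ratio of FPKM plus 1, glucose 120 min over raffinose, of 48 gene lists in wild type (circles) and the hda1-/- strain (squares), with the number of members measured in brackets and dotted lines at the median of all 5881 ORFs. The TCA cycle (-0.59), trehalose and glycogen (-0.54) and mitochondrial ribosomal proteins (-0.50) are lowest in wild type, and ribosome biogenesis (0.32) is highest.

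Many other lists showed no or few calls. The proteasome (34 measured, median -0.21), mitochondrial import (30, median -0.28) and daughter-cell separation genes (17, median -0.29) were mostly below 0, with 33, 25 and 16 members there, and TIM54 was the only call among them. Translation factors (37), ergosterol synthesis (27), histones (10), phosphate (15) and zinc genes (11) had none, with medians from 0.03 to 0.12. The 57 amino acid synthesis genes had a median of 0.05, and besides HIS3 and ARG1 only ILV6 was called, at 176 and 29.4 FPKM, a gene that ranged from 0 to 179 FPKM over the wild-type libraries. FUS2 of the mating genes was listed at 0 in raffinose and was at 5.45 FPKM in glucose, the only call among 18. In all, 73 of the 94 higher and 80 of the 116 lower ORFs were in none of the 48 lists, which cover 1126 of the ORFs measured.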

How the data were processed

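RNA was extracted with hot phenol, and directional mRNA libraries were sequenced on a HiSeq2500. The authors aligned reads with HISAT2 2.0.4 and quantified them with StringTie 1.3.0 on the R64 build, and their processing notes also name FastQC 0.11.5, SAMtools and bedtools 2.26.0. Each file deposited by the authors gives coverage, FPKM and TPM per transcript in one text field, with other annotation. Deposited FPKM was used as given. Whether reads were single or paired, and whether counting used strand, is not given in the sources used here, so overlapping genes are uncertain.

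Of 6685 nuclear ORFs, the 5881 that averaged 1 FPKM or more over 16 libraries were measured. Ratios used FPKM plus 1, with 2-fold and 0.5-fold as limits. Coverage times length divided by 202 bases gave fragments, on which 95% exact binomial (Clopper-Pearson) intervals were set. Intervals and the floor of 3 fragments cover counting error only. With 1 library per group, no test was run. An ORF was repeated when over 10% of its read-length windows occur more than once in the genome, and near 0 when a library gave under 3 fragments while the median elsewhere was at least 10 FPKM. RNA genes (386) and mitochondrial genes (55) entered no main count.

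Members, gene lists, motifs and limits were chosen with earlier results of these data known. Fixed names were GAL1, GAL7, GAL10, GAL2, GAL3, GAL4, GAL80, SUC2, HXT1 to HXT7, MIG1, MIG2, MTH1, HAP4, HDA1, ADH2, FBP1, PCK1, CYC1 and HSP12. The 15 highest and 15 lowest called ORFs were added that had a mean of at least 10 FPKM over both libraries, 3 fragments in all 16, no overlap and at most 10% repeats. Each list gave its 3 highest and 3 lowest called members and its most abundant one. RGT2, SNF3, MDH1, NOP7, TPS1, TPS2 and the IMA and MPH genes were named after their values were seen, and the Rgt1 motif was added then. The ratio and interval code was tested on simulated data. Alternatives were other pseudocounts, TPM, centring, 3-fold, an interval that excludes 1, other expression minimums, ORF-sum scaling and removal of uncertain ORFs. Scripts ran under Python 3.11.15 with pandas 2.3.3, NumPy 2.4.6, matplotlib 3.10.9 and SciPy 1.17.1.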

Additional observations from a re-analysis of the deposited data

Results flagged for a closer look

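The genes RIB3, XBP1 and CTR2 were called in opposite directions in the 2 genotypes. RIB3, of riboflavin synthesis, was at 5.37 FPKM in raffinose and 177 FPKM in glucose in wild type (27.9-fold), and at 181 and 4.63 FPKM in the hda1-/- pair (0.031-fold). Over the other 6 wild-type libraries RIB3 was between 114 and 179 FPKM, except for 18.3 FPKM after 30 min of glucose. XBP1, a stress-induced repressor, was listed at 0 in raffinose and was at 11 FPKM in glucose in wild type, and was at 17.7 FPKM and listed at 0 in the hda1-/- pair. CTR2, the vacuolar copper carrier, was listed at 0 in raffinose and was at 51.0 FPKM in glucose in wild type, and was at 5.90 FPKM and listed at 0 in the hda1-/- pair. Each contrast rests on 1 library a side, and the difference between genotypes was not tested.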

How the results depend on the processing

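With 94 ORFs higher and 116 lower, a pseudocount of 0.1 gave 143 higher, a 3-fold limit gave 62 higher and 64 lower, a minimum of 10 FPKM gave 59 higher, and removal of ORFs near 0 left 60 higher. Chosen after seeing the data, removal of ORFs listed at 0 left 53 higher, and calls made alike in both genotypes numbered 33 higher and 43 lower. Both counts stayed within 1.5 times under a pseudocount of 5, TPM, centring, an interval that excludes 1, no minimum, ORF-sum scaling, and removal of overlapping or repeated ORFs. The ratios of some single genes moved too. With a pseudocount of 5, CAT8, ADR1, JEN1 and HSP30 were within 2-fold, and the folds of YJL068C, TIM54, RIB3, GCG1 and SHE4 were 8.81, 6.71, 17.5, 2.53 and 0.296. Those of HXT1, MIG3, GAL1, GAL2, GAL7, GAL10 and the maltases moved by over 1.5 times as well and stand beside their main values. The share of higher ORFs among calls was 44.8%, and 36.6% without ORFs listed at 0. No paired analysis was possible because each group has 1 library. With no replicate, the spread between cultures is unknown, and a difference of a few percent over a list cannot be told from a difference between libraries. Genes under the floor of 3 fragments have no usable ratio.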

Other observations

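Of 158 nuclear RNA genes with a mean of at least 1 FPKM, 5 were higher (3.16%) and 9 lower (5.7%), where 1.6% and 1.97% of ORFs were, and none of the 21 mitochondrial genes was called. Libraries made from mRNA measure such RNAs poorly. SNR190, a small nucleolar RNA chosen after its values were seen, was at 8035 FPKM in raffinose and 55.4 FPKM in glucose, but at 1853 and 1554 FPKM in the hda1-/- pair. SNR7-L, a form of the U5 spliceosomal RNA chosen likewise, was at 514 and 6.42 FPKM, and at 549 FPKM and listed at 0 in the hda1-/- pair.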
